A study of Mus musculus with 8 samples.

Results

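Named small nuclear and nucleolar RNAs were followed in RNA-seq of mouse skin stem cells. Members were chosen by symbol, as box C/D snoRNAs (Snord), box H/ACA snoRNAs (Snora), small Cajal body RNAs (Scarna), U-type RNAs (Rnu) and Rpph1, Rmrp, Rn7sk and Terc. The group was selected on results of these same libraries, in which Rpph1 and Scarna10 had led it, so the values between genotypes below are a description. Calls made by fits over all genes are counted for the members, and nothing is read from those counts. The rule took 57 of the 24755 genes in the 2 deposited tables, 55 of 23861 in the table of hair follicle stem cells (HFSCs) and 26 of 16231 in that of epidermal stem cells (EpdSCs). Both tables listed 24 of them, the HFSC table alone 31 and the EpdSC table alone Snora44 and Snora69.

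The series compared WT C57BL/6J mice with Msx2-KO mice, which carry a pMC1-neo cassette upstream of exon 2 of Msx2. Dorsal skin was taken in telogen, the resting stage of the hair cycle, and cells were sorted as CD34+CD49f+Sca-1- (HFSC) or CD34-CD49f+Sca-1+ (EpdSC), with 2 libraries in each of the 4 groups. WT HFSC mice were 2 months old and Msx2-KO HFSC mice 6 months, so age and genotype cannot be told apart in HFSCs. All EpdSC mice were 6 months old, though the column names of their libraries also differed with genotype, as described below.

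Box C/D snoRNAs guide methylation and box H/ACA snoRNAs guide pseudouridylation of ribosomal RNA in the nucleolus, while scaRNAs guide the same changes in spliceosomal RNAs. In mammals most of them are cut from introns of host genes, many of which encode ribosomal proteins. Rpph1 and Rmrp are the RNA subunits of RNase P and RNase MRP, which process tRNA and ribosomal RNA precursors, Rn7sk holds the elongation kinase P-TEFb inactive, and Terc is the telomerase template. None of these RNAs carries the poly(A) tail of a typical mRNA.

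Members ran from 70 to 423 nt, and length marked out those with counts in some libraries and not in others, so 2 short and 2 long box C/D snoRNAs are shown together. Letters are from GENCODE M21 transcripts (GRCm38), written as DNA, 5′ to 3′. Capitals mark TGATGA (box C) within the first 25 bases and CTGA (box D) within the last 15, searched on the RNA strand only. Snord21 is at chr5:107904555-107904648 (plus strand), inside Rpl5. Snord14d is at chr9:40803995-40804080 (plus strand), inside Hspa8. Snord15b is at chr7:99479563-99479707 (minus strand), inside Rps3, and Snord17 is at chr2:144265979-144266216 (minus strand), in an intron of Snx5.

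Snord21: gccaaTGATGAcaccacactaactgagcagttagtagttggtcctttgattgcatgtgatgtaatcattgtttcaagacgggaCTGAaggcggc

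Snord14d: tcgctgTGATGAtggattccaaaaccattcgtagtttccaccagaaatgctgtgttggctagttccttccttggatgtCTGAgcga

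Snord15b: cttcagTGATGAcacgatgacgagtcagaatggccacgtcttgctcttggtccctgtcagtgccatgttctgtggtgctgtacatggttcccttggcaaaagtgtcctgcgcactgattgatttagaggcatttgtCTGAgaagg

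Snord17: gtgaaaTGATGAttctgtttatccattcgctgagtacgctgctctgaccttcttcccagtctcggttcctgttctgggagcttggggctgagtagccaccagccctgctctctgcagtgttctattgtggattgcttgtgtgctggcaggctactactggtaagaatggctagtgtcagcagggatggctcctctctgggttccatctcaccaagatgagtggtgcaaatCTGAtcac

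Both boxes were found in 15 of the 21 Snord members (71.4%) and in 20.3% of the 1506 GENCODE transcripts typed as snoRNA. The short and the long sequences above therefore carry the same end boxes. The ACA triplet that closes a box H/ACA snoRNA, 3 bases from its end, was found in 14 of 17 Snora members (82.4%) and in 18.3% of the same transcripts. Snora21, at chr11:97781639-97781775 (minus strand) in an intron of Rpl23, is shown with that triplet in capitals, since it was lower in both cell types.

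Snora21: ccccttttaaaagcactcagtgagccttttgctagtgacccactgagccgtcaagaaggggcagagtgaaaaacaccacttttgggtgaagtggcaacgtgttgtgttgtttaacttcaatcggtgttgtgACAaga

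Rmrp, at chr4:43492783-43493063 (minus strand), and Rpph1, at chr14:50807449-50807767 (minus strand), are shown because both were higher in HFSC libraries labelled Msx2-KO and their fitted changes in EpdSCs differed widely in size. Rmrp is whole, and the first 300 of the 319 bases of Rpph1 are given.

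Rmrp: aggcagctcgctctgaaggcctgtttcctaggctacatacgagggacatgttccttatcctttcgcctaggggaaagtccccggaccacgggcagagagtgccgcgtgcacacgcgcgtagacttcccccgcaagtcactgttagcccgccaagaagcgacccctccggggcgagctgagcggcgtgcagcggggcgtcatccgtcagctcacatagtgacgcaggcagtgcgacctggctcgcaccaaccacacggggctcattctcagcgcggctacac

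Rpph1: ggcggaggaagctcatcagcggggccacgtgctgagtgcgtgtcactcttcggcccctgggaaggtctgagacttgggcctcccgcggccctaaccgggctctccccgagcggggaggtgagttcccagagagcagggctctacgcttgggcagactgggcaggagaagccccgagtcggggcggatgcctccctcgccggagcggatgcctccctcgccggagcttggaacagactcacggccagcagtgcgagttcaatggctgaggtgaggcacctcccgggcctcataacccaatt

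HFSC libraries held 3132974 to 11016659 estimated counts, and the libraries labelled Msx2-KO were the deeper ones, with 11016659 and 6895606. Genes with at least 1 count nevertheless numbered 22448 and 19596 in WT and 11409 and 14251 in libraries labelled Msx2-KO. Msx2 itself had estimated counts of 53 and 7 in WT HFSCs and 40 and 18 in libraries labelled Msx2-KO, and in EpdSCs a normalized signal of 58.5 and 85.4 against 150.3 and 22.2. Counts over the whole gene do not test an insertion upstream of exon 2, so the libraries are named by their labels. The 4 HFSC libraries gave the members 0.933% (95% Wilson interval 0.924 to 0.942), 0.490% (0.482 to 0.498), 0.604% (0.599 to 0.608) and 1.06% (1.05 to 1.07) of counts, in the order WT replicate 1 and 2 and Msx2-KO replicate 1 and 2. These intervals cover counting error only. The summed share of the group overlapped between genotypes in HFSCs, while its make-up by length did not. In bulk samples, fewer cells that hold an RNA and less of it per cell cannot be told apart.

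In HFSCs, snoRNAs of up to 104 nt had counts only in the WT libraries. The HFSC table listed 18 members of this size, 17 Snord and Scarna17, and each had counts in both WT libraries and 0 in both libraries labelled Msx2-KO. Their counts summed to 443 and 567 in WT and to 0 and 0 in libraries labelled Msx2-KO. Scaled to a library of 1000000 counts (CPM) with TMM factors, the sums were 59.1 and 183 in WT, and the level in libraries labelled Msx2-KO was at least 252-fold lower than the WT mean, taking 3 counts per library as the limit that a count of 0 allows. Set against WT replicate 1 alone, the bound was 123-fold. The division at 110 nt was set after the values were seen, with no member between 104 and 126 nt. Over all genes of the table, 20.8% had counts in both WT libraries and 0 in both libraries labelled Msx2-KO.

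Snord21 was the most abundant of the short snoRNAs, with 168 and 229 estimated counts in the WT libraries and 0 in both libraries labelled Msx2-KO. In CPM it had 22.4 and 74.0 in WT, and its level was at least 100-fold lower than the WT mean in the others, or at least 46.6-fold lower than WT replicate 1 alone. It was also the only short member at 10 CPM or more in both WT libraries, a level that 6880 genes reached and at which 67 (0.974%) were at 0 in both libraries labelled Msx2-KO. Snord14d had 37.7 and 43.6 counts in WT and 0 and 0, at least 10.5-fold lower than WT replicate 1, the lower in CPM. Its neighbour Snord14c, nearly identical in sequence and also inside Hspa8, had 15.7 and 34.9 and then 0 and 0. Reads of this pair can be split between them, and their sum was 53.4 and 78.5 in WT against 0 and 0. Snord33, Snord34 and Snord35a, which share the host Rpl13a, had 31.2 and 31.3, 6 and 25, and 18 and 4 counts in WT, and 0 in the other libraries. Snord13, which guides acetylation of the small-subunit rRNA and has no host in the annotation, had 6 and 20 in WT. Snord57 had estimated counts of 0.911 and 13.4 in WT and Snord11 had 1 and 9. Scarna17 had 12 and 5 counts in WT and none in the libraries labelled Msx2-KO.

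**Figure D1:**
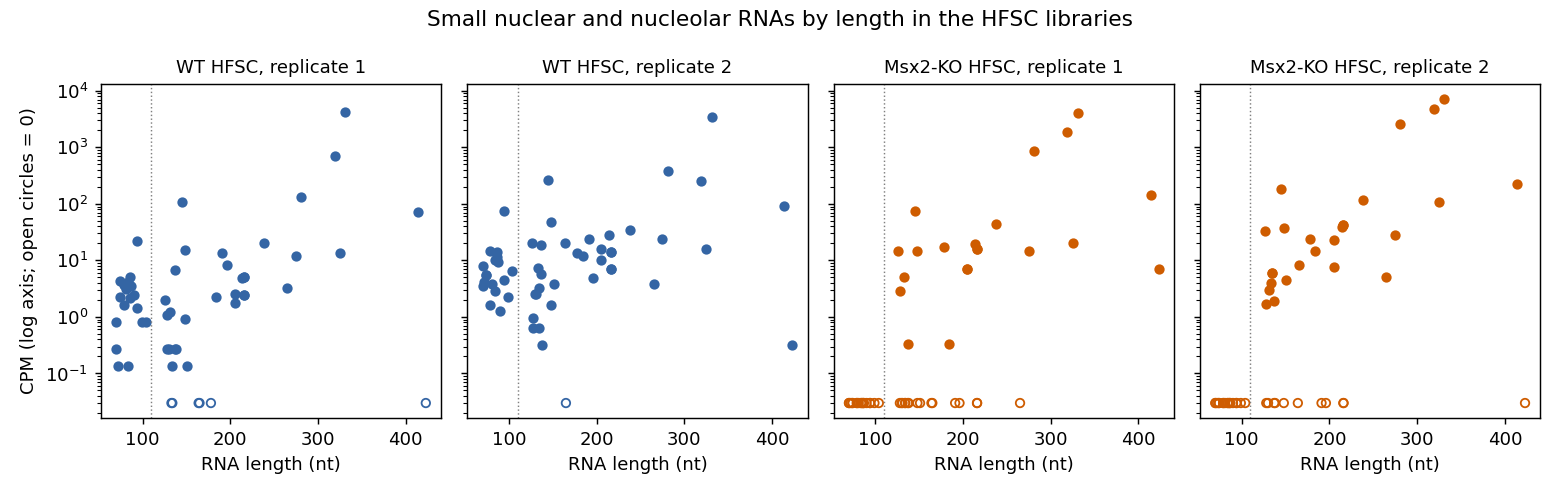
CPM of the 55 members in each HFSC library (log axis, open circles at the foot stand for 0) against RNA length in nt, with a dotted line at 110 nt. Left of the line, both WT panels hold 18 filled points and both Msx2-KO panels hold 18 open ones.

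Host genes of these short snoRNAs were transcribed in the libraries where the snoRNA was at 0. Of the 18, 16 lay within 13 host genes, 9 overlapping an annotated exon of some transcript and 7 in introns, and 12 of the 13 hosts had counts in both libraries labelled Msx2-KO. Rpl5, which encodes a ribosomal protein and hosts Snord21, had 91.3 and 70.9 estimated counts in WT and 134 and 136 in libraries labelled Msx2-KO. In CPM Rpl5 had 12.1 and 23.0 in WT against 14.6 and 28.9, which overlapped. Rpl13a had 1079 and 342 in WT and 6693 and 2207 in libraries labelled Msx2-KO. In CPM, 8 hosts were higher and 1 lower without overlap in libraries labelled Msx2-KO, against 11.1% and 37.1% of all genes. The lower one was Snhg6, a noncoding host of Snord87, at 16 and 5 counts in WT and 0 and 2 in the others. EdgeR called none of the 13, and 0 of all 14422 genes tested.

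**Figure D2:**
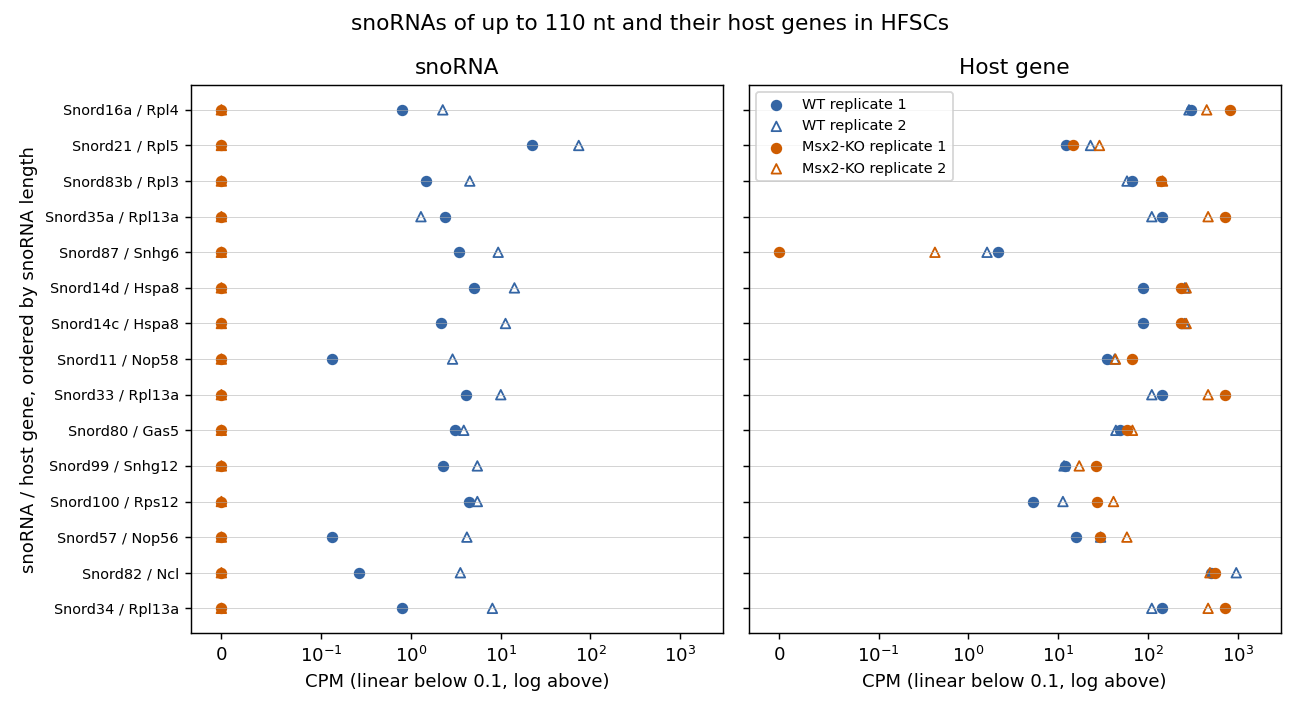
CPM (linear below 0.1, log above) of 15 of the 16 short snoRNAs with an annotated host (left) and of the host (right) in the 4 HFSC libraries, blue for WT and orange for Msx2-KO, filled circles for replicate 1 and open triangles for replicate 2. Orange points of the snoRNAs all sit at 0, and those of the hosts sit at counts, apart from Snhg6 in replicate 1.

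Other short genes had the same values. The HFSC table listed 27 genes of any type of up to 110 nt, the 18 members among them, and all 27 were at 0 in both libraries labelled Msx2-KO, while 24 had counts in both WT libraries. In the EpdSC table no member of up to 110 nt was listed, and 1 of the 15859 genes matched by symbol to GENCODE M21 was that short. The EpdSC table was filtered before deposit, so it gives no value for the 18 short members in its 4 libraries. Column names in the tables end in an S and a number in every library but the 2 of WT HFSCs. The numbers of WT EpdSC libraries were close to those of HFSC libraries labelled Msx2-KO. EpdSC libraries labelled Msx2-KO had far lower numbers, so the names differed with genotype in both cell types. What that number stands for is not given in the sources used here. Its part in these values and in those of EpdSCs below was not tested. The study's methods name 1 library kit, and whether every library was prepared alike was not tested.

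Box C/D snoRNAs longer than 110 nt were counted in every HFSC library. Snord15b had 809 and 818 estimated counts in WT and 676 and 870 in libraries labelled Msx2-KO, or 108 and 264 CPM against 73.6 and 185, and the groups overlapped. Snord15a, its neighbour in Rps3, had 114 and 146 counts in WT and 137 and 179 in the others, also overlapping in CPM. Divided by library totals instead, both were lower without overlap. Snord22, which is needed for processing of small-subunit rRNA and lies in Snhg1, had 15 and 62.3 against 134 and 156 counts, and overlapped in CPM at 2.0 and 20 against 14.6 and 33.1. Snord17 was higher in both libraries labelled Msx2-KO, at 155 and 105 counts in WT and 402 and 549 in the others, a fitted log2 fold change of 1.56 ± 0.61 (SE). These 4 were the only Snord members over 110 nt. The other 17 were all among those at 0.

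Box H/ACA snoRNAs, 128 to 205 nt long in this table, did not behave as 1 group. Snora21 had 50 and 58 counts in WT and 3 and 9 in libraries labelled Msx2-KO, and its fitted log2 fold change was -3.51 ± 1.51 (SE). Snora81, inside Eif4a2, had 0 and 41.6 estimated counts in WT and 157 and 113 in libraries labelled Msx2-KO. Its groups did not overlap, but the fitted log2 fold change of 1.62 ± 2.17 (SE) was smaller than its error. Without WT replicate 1 it was 0.58, and without WT replicate 2 it was 10.17. Snora73a and Snora73b, the U17 pair in introns of Rcc1 that takes part in rRNA cleavage, share near-identical sequence. Their summed counts were 31.9 and 79.5 in WT and 132 and 143 in libraries labelled Msx2-KO, or 4.26 and 25.7 against 14.3 and 30.3 CPM, which overlapped. Snora23 had 17 and 37 counts in WT and 3 and 69 in the others. Snora9, inside Snhg15, had 0.3 and 22.5 in WT and 47 and 19. Of the 15 Snora members listed, 7 were lower and 2 higher in CPM without overlap, against 37.1% and 11.1% of all genes.

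Of the 4 long RNAs Rpph1, Rmrp, Rn7sk and Terc, none of which has a host in the annotation, Rpph1 and Rmrp were higher in both HFSC libraries labelled Msx2-KO and the other two overlapped. Rpph1 had 714 and 257 CPM in WT and 1853 and 4731 in libraries labelled Msx2-KO, or 485 ± 323 (SD, n = 2) against 3292 ± 2035 (SD, n = 2). The WT libraries were both below the others, by a fitted log2 fold change of 2.76 ± 0.80 (SE). Rmrp had 131 and 389 CPM in WT and 881 and 2592 in libraries labelled Msx2-KO, a fitted log2 fold change of 2.74 ± 0.85 (SE). Ccdc107 overlaps Rmrp on the other strand, and the sources used here do not say if counting used strand. Scaled by library totals the values were 1.67 for Rpph1 and 2.03 for Rmrp, on a scale on which the median of all genes was -1.0 in place of -0.14. Rn7sk, the most abundant member, had 4175 and 3410 CPM in WT and 4087 and 7229 in libraries labelled Msx2-KO, and the groups overlapped. Its fitted log2 fold change of 0.58 ± 0.54 (SE) became -0.35 with library totals. Terc had 0 and 1 counts in WT and 66 and 0 in libraries labelled Msx2-KO, so 1 library held nearly all of it.

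ScaRNAs longer than 110 nt were mostly at or above the WT level. Scarna2, which modifies the U2 spliceosomal RNA, had 70.8 and 92.5 CPM in WT and 145 and 223 in libraries labelled Msx2-KO, with a fitted log2 fold change of 1.17 ± 0.33 (SE). Scarna10, inside Ncapd2, had 13.8 and 15.8 CPM in WT and 20.6 and 106 in libraries labelled Msx2-KO, with a fitted log2 fold change of 2.10 ± 0.88 (SE). Msx2-KO replicate 2 carried most of that difference, as the value without it was 0.48. With library totals the groups of Scarna2 and Scarna10 overlapped. Scarna13 had 12.0 and 24.2 CPM in WT and 14.8 and 28 in the others, and Scarna6 had 3.2 and 3.9 against 0 and 5.1. Neither separated the genotypes in CPM, while both were lower without overlap when divided by library totals.

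U-type RNAs exist in several near-identical copies, so values of single copies are uncertain and depend on how the authors split reads. Rnu2-10, a copy of the spliceosomal U2 RNA, had 101 and 75.2 estimated counts in WT and 0 and 0 in libraries labelled Msx2-KO. The 10 listed U2 copies within 5% of its sequence, 9 of them outside the rule, summed to 69.0 and 117 CPM in WT and 188 and 419 in libraries labelled Msx2-KO, the opposite direction. Rnu1a1, a copy of U1, had 0 and 62.0 counts in WT and 0 and 0 in the others, and Rnu1b1 had 0 and 0 and then 0 and 38.7. The 16 U1 copies summed to 3.81 and 206 CPM in WT and 770 and 1666 in libraries labelled Msx2-KO, and WT replicate 1 stood apart from the rest. The U3 RNA, which starts rRNA processing, has 4 copies called Rnu3b inside Tex14. Rnu3b1 and Rnu3b2 had counts in WT alone, at 37.9 and 42.8 and at 17.6 and 22, while Rnu3b3 and Rnu3b4 had 37.9 and 42.8 and 17.6 and 22 counts in WT and 146 and 199 each in libraries labelled Msx2-KO. Summed over the 4 copies, U3 had 14.8 and 41.9 CPM in WT and 31.7 and 84.5 in libraries labelled Msx2-KO, which overlapped. Rnu3a, a separate U3 gene, had 4.9 and 28.1 CPM against 19.3 and 38.8. The minor spliceosome RNAs Rnu11 and Rnu12 had 0 and 2 and 1 and 12 counts in WT and 0 and 28 and 0 and 21 in libraries labelled Msx2-KO.

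Counted over the HFSC table, 28 of 55 members were lower and 9 higher in CPM with no overlap between genotypes, against 37.1% and 11.1% of all 23861 genes. With library totals 33 were lower and 6 higher, against 47.5% and 3.98% of all genes. The filter on low counts kept 37 members, 10 of the 18 short ones, 7 of 14 between 126 and 148 nt and 20 of 23 above 150 nt. Calls needed a Benjamini-Hochberg adjusted p under 0.05 and a fold change over 2, and edgeR called 0 of the 37 members and 0 of the 14422 genes tested (0.0%). The members called were 2 and 1 without WT replicate 1 and 2, and 21 and 25 without Msx2-KO replicate 1 and 2, where 36.6% and 59.1% of all genes tested were called. At an unadjusted p under 0.05 with the same fold, 14 members were lower and 4 higher, against 12.2% and 5.02% of all genes tested. DESeq2 called 5 members lower and 2 higher (4.67% of all genes in either direction), and limma-trend called 10 lower and 0 higher (9.76%). The rule for the members used this contrast, so nothing is read from these counts. The fitted log2 fold change had a median of -0.30 over the 37 members and -0.14 over all genes tested.

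Markers of other skin cells also differed between the HFSC libraries. The sum of 6 suprabasal markers was 169 and 199 CPM in WT and 736 and 2807 in libraries labelled Msx2-KO, 4 of the 6 being higher without overlap. Lor had counts in Msx2-KO replicate 2 alone, at 21.9 CPM. Sbsn had 112 and 170 CPM in WT against 61.9 and 156, which overlapped. The 4 listed sebaceous markers summed to 67.2 and 87.3 against 1226 and 966, and all 4 were higher. The 8 HFSC markers summed to 6452 and 6178 against 3427 and 3630. Fibroblast markers (3 of 6 listed) summed to 47.8 and 64.0 against 27.0 and 12.3 CPM, immune markers (4 of 6) to 10.3 and 4.85 against 20.2 and 10.4, melanocyte markers (4 of 5) to 15.1 and 31.4 against 48.8 and 17.8, and endothelial markers to 11.1 and 5.5 against 6.10 and 4.03. Cd74 gave the whole immune sum in libraries labelled Msx2-KO, while Ptprc, Cd3g and Lyz2 were at 0 there. Of the melanocyte markers, Dct had 10.5 and 20.4 CPM in WT against 48.8 and 14.4. Pmel and Tyrp1 had counts in both WT libraries and were at 0 in both libraries labelled Msx2-KO. Mitochondrial rRNA took 8.94% and 36.3% of counts in WT and 49.4% and 53.2% in libraries labelled Msx2-KO. The part of these in the members' values was not tested.

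EpdSCs gave another picture. The EpdSC table holds a signal that the authors had normalized, so its values are not comparable in size with HFSC counts and are compared only within the table. Each of the 26 listed members had its 2 highest values in the WT libraries. The table lists only genes that passed a filter on low values, so members listed only through their WT signal had to be lower in the other group. The rule of that filter is not stated, so which members these were is not known. All 26 were 126 nt or longer. Together they made up 2.05% and 2.66% of the summed signal in WT and 0.0275% and 0.0363% in libraries labelled Msx2-KO. A group without overlap in this direction was found for 44.5% of all genes of the table, and a call by limma on log2(signal + 1) for 7.78%. Of the members, limma called 20 lower and 0 higher. EdgeR, run on the values divided by that of 1 count in each library and rounded, called 0 of 25 members and 0 of 15258 genes tested (0.0%), with 22 members and 5132 genes at an unadjusted p under 0.05 and over 2-fold. By limma the count was also 0 without either WT library, as it was for all genes, with 18 and 19 members at an unadjusted p under 0.05 and over 2-fold. It was 21 and 25 without Msx2-KO replicate 1 and 2, where 37.6% and 63.9% of all genes were called. The rule for the members used this contrast and the filter could fix the direction of some, so nothing is read from these counts.

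Rpph1 had the largest negative fitted value of all 16231 genes in the limma fit. Its signal was 98669 and 98990 in WT, or 98829 ± 227 (SD, n = 2), and 0 and 1.35 in libraries labelled Msx2-KO. A single count was worth 1.27 and 0.674 in those libraries, so the second value is that of about 2 counts. The fitted log2 fold change was -15.98 ± 0.64 (SE) on the log2(signal + 1) scale. Rn7sk had 190271 and 245493 in WT and 383 and 3051 in libraries labelled Msx2-KO, with a fitted log2 fold change of -7.64 ± 1.18 (SE). The signal counted as Rmrp fell far less, with 36604 and 34354 in WT and 6400 and 1998 in libraries labelled Msx2-KO. Its fitted log2 fold change was -3.31 ± 0.76 (SE). As in HFSCs, Ccdc107 overlaps Rmrp on the other strand, and whether counting used strand is not known. Terc had 72.6 and 99.6 in WT and 0 and 0.674 in the others.

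The ratio of Rpph1 to Rmrp does not depend on how a library was scaled. It was 2.7 and 2.88 in WT EpdSCs, 2.10 and 1.83 in HFSC libraries labelled Msx2-KO, and 5.44 and 0.662 in WT HFSCs. In EpdSC libraries labelled Msx2-KO it was 0 and 0.000675. The ratio of Rn7sk to Rpph1 was 1.93 and 2.48 in WT EpdSCs, 2.21 and 1.53 in HFSC libraries labelled Msx2-KO and 5.85 and 13.3 in WT HFSCs. Other pairs gave another order. Scarna2 to Scarna13 was 1.65 and 1.15 in WT EpdSCs, 9.76 and 7.95 in HFSC libraries labelled Msx2-KO and 5.89 and 3.81 in WT HFSCs. Snord15b to Snord15a was 2.57 and 2.34, then 4.94 and 4.86, then 7.10 and 5.60.

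Among scaRNAs, Scarna10 had a signal of 2425 and 4136 in WT EpdSCs and 0 in both libraries labelled Msx2-KO. That is at least 1123-fold lower, taking 3 counts per library as the limit. Scarna6 had 438 and 664 in WT and 0 and 0, at least 189-fold lower. Scarna2 had 1394 and 1223 in WT and 0 and 14.2 in the others, and Scarna13 had 847 and 1059 against 0 and 6.07. The fitted log2 fold change of Scarna2 was -8.39 ± 1.49 (SE).

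The 4 Snord members of the EpdSC table were those over 110 nt that HFSCs held in every library. Snord15b had 1307 and 756 in WT and 0 and 0 in libraries labelled Msx2-KO, at least 353-fold lower. Snord15a had 508 and 322 and was at least 142-fold lower, and Snord22 had 529 and 222.1 and was at least 129-fold lower than the WT mean, or 76-fold lower than WT replicate 2 alone. Snord17 had 2046 and 1253 in WT and 0 and 6.07 in the others, the value of 9 counts. Their fitted log2 fold changes ran from -9.96 for Snord15b to -8.43 for Snord22.

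All 11 Snora members of the table were at 0 in both libraries labelled Msx2-KO. Snora73b had 287 and 188 in WT, Snora73a 253 and 195, Snora81 190 and 111, Snora16a 156 and 50.9, Snora21 84.5 and 34.1 and Snora23 35.7 and 48.4. The lower bounds of those just named, against the WT mean, ran from 14.4-fold for Snora23 to 81.2-fold for Snora73b. Those of the other Snora members ran from 4.45-fold for Snora69 to 10.5-fold for Snora64. Snora44 and Snora69, absent from the HFSC table, had 22.9 and 19.2 and 10.8 and 15.2 in WT. Snora64 had 60.5 and 0.689 in its 2 WT libraries, so against WT replicate 2 alone it had no lower bound. The U3 RNAs were detectable in 1 library labelled Msx2-KO: Rnu3b4 had 711 and 322 in WT and 0.318 and 24.6 in the others, Rnu3b3 706 and 198 against 0.318 and 24.6, and Rnu3a 352 and 140 against 0 and 26.3. Of the members, 16 were at 0 in both libraries labelled Msx2-KO and 6 in 1 of them. Of all genes, 5.53% were at 0 in both and above a signal of 0.5 in both WT libraries. At a WT signal of 100 or more in both libraries, 8 of 17 members and 65 of 9538 genes (0.681%) were at 0 in both libraries labelled Msx2-KO.

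**Figure D3:**
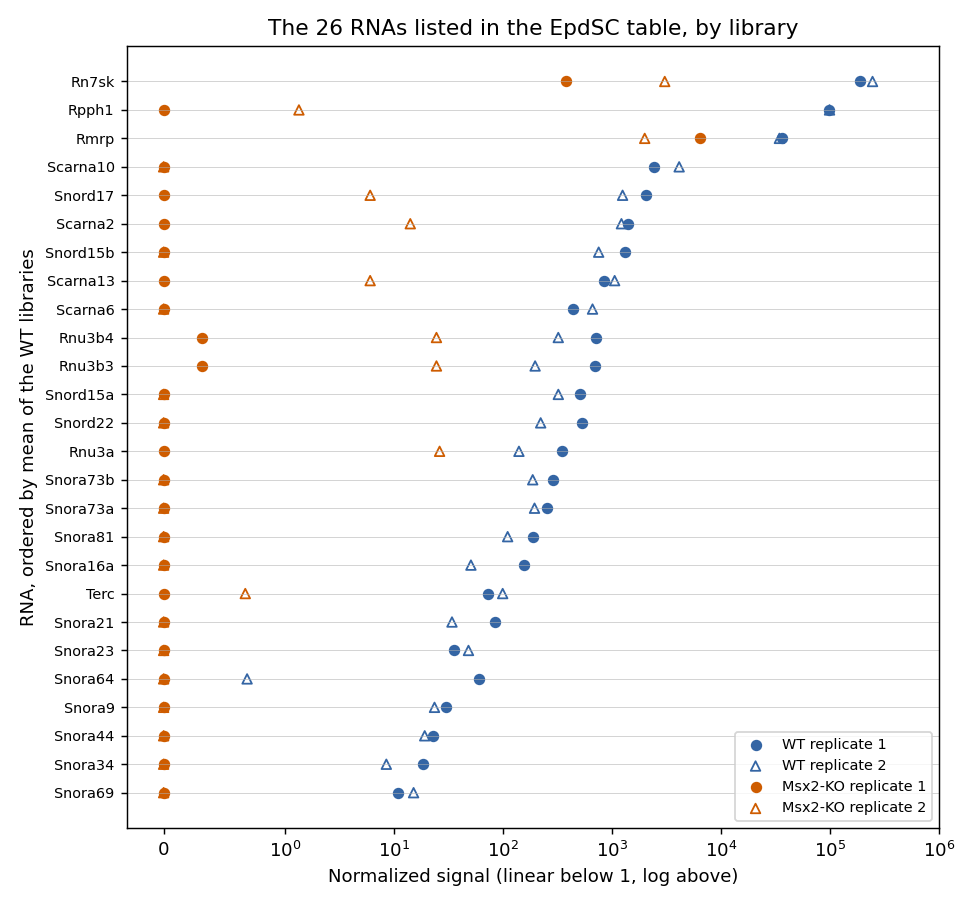
Normalized signal (linear below 1, log above) of the 26 members listed in the EpdSC table, 1 row per RNA ordered by its WT mean, blue for WT and orange for Msx2-KO, filled circles for replicate 1 and open triangles for replicate 2. No orange point reaches a blue one in its row, 16 rows have both orange points at 0, and Rmrp has the narrowest gap among the 3 most abundant RNAs.

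Hosts did not share this pattern in EpdSCs. Of the 20 listed members with a host, 18 lay in 15 host genes found in the table and 2 in a host not listed there. Of the 15, 5 were higher and 4 lower without overlap, where 44.5% of all genes were lower. Limma called 1 lower (Rpl39) and 0 higher, where 7.78% of all genes were called lower, and edgeR on the rescaled values called no gene. Rps3, host of Snord15a and Snord15b, had 11381 and 10343 in WT and 34015 and 10404 in libraries labelled Msx2-KO. Rcc1, host of the Snora73 pair, had 284 and 234 against 2950 and 827. Ncapd2, host of Scarna10, had 287 and 346 against 152 and 451, and Eif4a2, host of Snora81, 2904 and 2896 against 5460 and 2598. Snhg15, the noncoding host of Snora9, had 141 and 126 against 0 and 33.7. The fitted log2 fold changes of the 15 hosts had a median of 0.38, beside -0.64 over all genes and -6.84 over the 26 members. With the 16 members at 0 set to their bounds the members' median was -6.16.

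Proteins that bind, build or trim these RNAs were read from lists of 117 genes, 116 of them in each table. In HFSCs edgeR called 0 of 110 tested, as it did 0 of all 14422 genes. In EpdSCs limma called 3 lower and 1 higher of 116 (2.59% lower), where 7.78% of all 16231 genes were called lower and 255 higher. Their median was 0.12, beside -0.64 over all genes, but the lists differed. The median was -2.58 for RNase P and MRP proteins, -1.79 for box C/D proteins and 1.49 for snRNP proteins. Without overlap, 7 of the 11 RNase P and MRP proteins were lower and 2 higher. Of the 25 snRNP proteins, 3 were lower and 17 higher, where 44.5% of all genes were lower. EdgeR on the rescaled values called 0 of the listed proteins and 0 of all genes. By limma Rrp9, which binds the U3 RNA, was lower, at 294 and 248 in WT and 19.1 and 27.6 in libraries labelled Msx2-KO. Pop5, a subunit of RNase P and RNase MRP, was lower, at 231 and 235 against 26.7 and 35.0, and Tert, the telomerase protein, at 18.4 and 20.9 against 0 and 0.674. Exosc4, a subunit of the RNA exosome, was the 1 that was higher. Fbl, the methyltransferase of box C/D particles, had 331 and 303 against 3382 and 937, and Dkc1, the pseudouridine synthase of box H/ACA particles, had 547 and 433 against 228 and 607. Neither was called. By list, the genes called were 1 of 5 box C/D proteins, 1 of 11 RNase P and MRP proteins, Tert alone of its list and 1 of 17 trimming and decay factors. None was called of 4 box H/ACA proteins, 12 assembly factors, 7 genes of the 7SK particle, 25 snRNP proteins, 20 polymerase III and snRNA gene factors or 14 Integrator subunits.

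Several other noncoding RNAs were lower in the same EpdSC libraries. Malat1, a long nuclear RNA, had 224974 and 194454 in WT and 2400 and 1437 in libraries labelled Msx2-KO. Rn7s2, the RNA of the signal recognition particle, had 291224 and 320231 against 2395 and 7714. The mitochondrial rRNA mt-Rnr1 had 1536390 and 957311 against 1007 and 2913. Its partner mt-Rnr2 had 2330130 and 1444870 against 17028 and 875881, so replicate 2 held far more of it than replicate 1. The mitochondrial mRNA mt-Co1 had 151701 and 96799 against 224246 and 146198. The 7 listed histone genes of the replication clusters, whose mRNAs also lack a poly(A) tail, summed to 1571 and 1009 in WT and 19.1 and 78.9 in libraries labelled Msx2-KO, and in HFSCs 8 such genes summed to 13.5 and 9.05 CPM against 192 and 98.5. These genes were chosen after their values were seen. Suprabasal markers summed to 272039 and 193451 in WT EpdSCs and 42670 and 72215 in the others, EpdSC markers to 199149 and 236085 against 646343 and 457771, and immune markers (5 of 6 listed, Ptprc at 0 in 3 of the 4 libraries) to 667 and 43.6 against 0 and 3.37. HFSC markers (7 of 8) summed to 89500 and 107932 against 300158 and 212833, sebaceous markers (3 of 5) to 6556 and 7145 against 25390 and 10941, and the only endothelial or pericyte marker listed, Pecam1, had 8.67 and 4.74 against 24.2 and 18.2. Without overlap, 4 of the 6 EpdSC markers were higher and 1 lower, and 4 of the 7 HFSC markers were higher and 0 lower. Krt15 gave most of the HFSC marker sum, at 79951 and 96241 in WT and 230109 and 177798 in the others. Itga6 was in both lists, and Lhx2, Sox9 and Nfatc1 overlapped. Of the 3 sebaceous markers, 2 were higher and 1 lower. No fibroblast or melanocyte marker was listed. The part of these in the members' values was not tested.

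**Figure D4:**
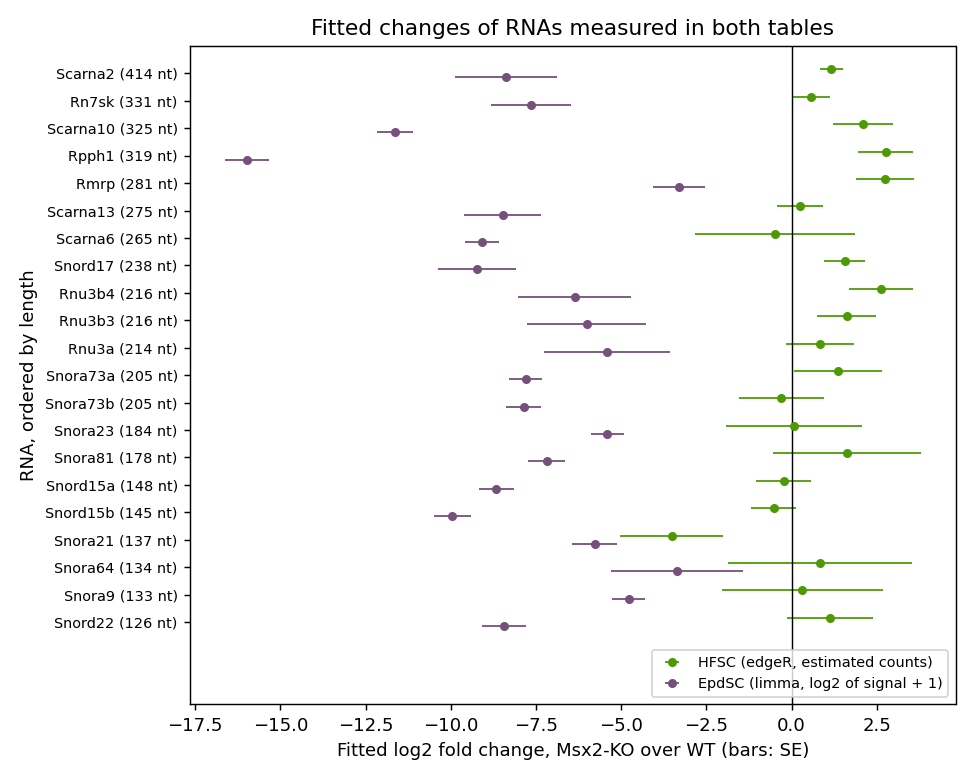
Fitted log2 fold change, Msx2-KO over WT, with its SE, of the 21 members fitted in both tables, ordered by length, from edgeR on HFSC counts (green) and limma on log2 EpdSC signal (purple). In EpdSCs all 21 are below 0 and in HFSCs 16 are above 0 under TMM factors, and with library totals 5 of the HFSC values named in the text change sign (Rn7sk, Rnu12, Scarna13, Snora23 and Snora9).

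Set side by side, 3 sets of members can be described. Within the HFSC table, the 18 of up to 104 nt had counts in WT alone. Rpph1, Rmrp, Snord17, Snora81 and Rnu3b4 were higher in both HFSC libraries labelled Msx2-KO, with TMM factors and with library totals, and lower in both EpdSC libraries with that label. Snora21, Snora16a and Snora34 had lower values in the libraries labelled Msx2-KO of both tables, in HFSCs with TMM factors and with library totals. In WT HFSCs they had 50 and 58, 2.3 and 18.4, and 2 and 1 counts. Only Snora21 of them passed the filter on low counts in HFSCs. Snora34 lay within the 3 counts that a count of 0 allows, as did Snora16a in WT replicate 1. With library totals alone, Scarna6, Scarna13, Snord15a and Snord15b were also lower without overlap in HFSCs, and they were lower in EpdSCs. The tables were normalized separately and the difference between cell types was not tested.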

How the data were processed

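RNA of sorted HFSCs and EpdSCs was sequenced from 8 libraries (SMARTer Stranded Total RNA-Seq Kit and NovaSeq per the study's methods; whether all were prepared alike was not tested), and the authors aligned reads with STAR 2.7.3a to GRCm38/mm10 in Partek Flow with GENCODE genes. The HFSC table holds estimated counts per gene as deposited by the authors, not normalized, and its totals are given in the report. The EpdSC table holds a signal that the authors made from such counts with 1 scaling factor per library, after removing low genes by a rule not stated. Files with the authors' own comparisons (fold changes and p-values) were not used.

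Estimated counts were rounded and fitted with edgeR 4.0.16 (filterByExpr, TMM, quasi-likelihood test, R 4.3.3), and log2(signal + 1) with limma 3.58.1, each over all genes of its table. DESeq2 1.42.0 and limma-trend were alternatives, as was edgeR on EpdSC values divided by the value of 1 count and rounded (63.3% to 82.9% of values came within 0.02 of a whole count). P-values were adjusted by Benjamini-Hochberg. Both fits were run on simulated counts with large known changes, which does not test how they behave on the deposited values. Replicates are separate samples of a group, and nothing in the labels says that they came from separate animals, so p-values measure the spread between these samples. Fold bounds take 3 counts per library. Lengths, hosts and sequences came from GENCODE M21. Near copies differ by at most 5% of bases.

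The members, gene lists and size bounds (110 and 150 nt) were chosen with earlier results of these data known. Named were members outside Snora and Snord, the most abundant 6 Snora and 6 Snord per table, and the 5 largest values each way among members without overlap and with a mean of at least 10, with hosts. Other members named were chosen after their values were seen. One short member and its host are not reported singly here.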

Additional observations from a re-analysis of the deposited data

Results flagged for a closer look

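Under either HFSC scaling, TMM factors or library totals, 5 members changed in opposite directions in HFSCs and EpdSCs, with no overlap between genotypes. Scarna2, Scarna10 and Rnu3b3 did so with TMM factors alone, as their HFSC groups overlapped with library totals. HFSC fold changes given here used TMM factors. The fitted log2 fold change of Rpph1 was 2.76 in HFSCs and -15.98 in EpdSCs. Rmrp had 2.74 and -3.31, and Rnu3b4 had 2.63 and -6.37. Rnu3b4 is 1 of 4 near-identical copies, whose sum overlapped in HFSCs (14.8 and 41.9 against 31.7 and 84.5 CPM), so its value depends on how reads were split. For Snora81 the values were 1.62 and -7.19, and for Snord17 they were 1.56 and -9.24. The difference between cell types was not tested, since the tables were normalized separately, and WT mice were younger than Msx2-KO mice in the HFSC table alone.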

How the results depend on the processing

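With 2 libraries per group, counts of calls moved with 1 library. Members called in HFSCs were 0 by edgeR, 1 with library totals, 7 with DESeq2, 10 with limma-trend and 2 with the replicate block, and 1 to 25 when a library was left out. Over all genes, 51 were called with library totals, 674 with DESeq2, 1407 with limma-trend and 231 with the block. The median log2 fold change of HFSC members was -0.30, -3.94 with no filter on low counts, 1.26 with at least 10 counts in every library, and -6.43 to 0.75 when a library was left out. Members called in EpdSCs were 20 by limma, 0 by edgeR on rescaled and rounded values, 19 with the replicate block, and 0 to 25 when a library was left out. Their median was -6.84, -9.44 with a pseudocount of 0.1, -4.44 with 10, -7.42 with a mean of at least 10, -8.43 with edgeR, and -7.83 to -6.29 when a library was left out. Same-numbered samples shared only a number (r = -0.0444 in HFSCs and -0.0225 in EpdSCs), so the block is not read as pairing.

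Of 26 named HFSC values, 5 changed sign with library totals, 3 with limma-trend, 3 with the block and 2 to 4 when a library was left out. None of 22 in EpdSCs did in the 12 alternatives run.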
